A study of Homo sapiens with 5 samples.

Results

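The replication-dependent histone genes of HEK 293T cells were described across 3 groups of RNA-sequencing libraries. HEK 293T is a human embryonic kidney line expressing the large T antigen of SV40. The first group was exposed to 1 µM 5-aza-2'-deoxycytidine (5-aza-CdR) for 3 days and gave 2 libraries. The second, called recovery, was treated in the same way, kept for a further 30 days without drug, and gave 1 library. The third was the control, grown without the drug, and gave 2 libraries. All groups came from the same line, and nothing in the labels says which cultures the libraries came from. Members were the genes whose current symbol is H1-1 to H1-6, or H2AC, H2BC, H3C or H4C with a number. The rule found 63 entries among the 20220 used from the deposited RefSeq table, and 6 further genes of the name table (H2AC7, H2AC18, H2BC12, H2BC18, H3C14 and H4C14) had no entry of their own. There were 6 members of class H1, 15 of H2A, 16 of H2B, 12 of H3 and 14 of H4. By position 53 lay on chromosome 6, 7 in a group on chromosome 1, 2 in a separate pair on that chromosome and 1 on chromosome 12 (hg19).

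Replication-dependent histone genes supply the histones that package new DNA and are transcribed mainly during S phase. H2A, H2B, H3 and H4 form the nucleosome core and H1 binds the linker DNA between cores. Most of the genes have no introns, and they lie in clusters, exist in many near-identical copies and give mRNAs that end in a stem-loop bound by SLBP in place of a poly(A) tail. 5-aza-CdR is a cytidine analogue that enters DNA during replication and blocks the methyltransferases there, which lowers methylation over successive divisions. Ribosomal RNA had been removed and cDNA was primed with both oligo-dT and random primers, so transcripts without a poly(A) tail could enter them.

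The values are FPKM (fragment counts divided by transcript length and by depth), 1 per group with the libraries already combined by the authors. No spread between libraries can be shown, and no test was added. Calls are those of the authors, from q-values (p-values adjusted for multiple testing) against control. The same control values stand in both comparisons. Depth could be estimated because most members are short genes without introns. Multiplied by the span less 200 bases, low values of members and of intronless receptor genes fell on whole multiples of 1 step in each group. All of 31 low values in 5-aza-CdR, 18 of 18 in recovery and 23 of 23 in control came within 0.05 of a whole number of fragments. Each step was chosen to make these values whole, so their fit is no separate check of the depths. The steps correspond to about 7130000, 3510000 and 5380000 fragments behind the 5-aza-CdR, recovery and control values. In a gene spanning 450 bases, 1 fragment was worth 0.561, 1.14 and 0.743 FPKM in these groups. Fragment numbers below are these estimates, available for 59 members, and their 95% intervals (exact Poisson for a number, exact binomial for a ratio) cover counting error only. In the HEK 293 marker list 7, 6 and 7 of 9 measured genes were at 1 FPKM or more in 5-aza-CdR, recovery and control, with KRT18 at 418, 214 and 231 FPKM and PAX2 at 0.146, 0 and 0 FPKM. Of 13 measured markers of blood, endothelium, fibroblasts and liver, 6, 7 and 10 were listed at 0, and their summed level was 6.85, 8.06 and 3.83 FPKM. By the authors' deposited table the macrophage gene CD68 was called higher in recovery (3.43 FPKM, listed at 0 in control), and the neurofilament gene NEFM with 5-aza-CdR (4.79 FPKM, listed at 0 in control).

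The sequences just upstream of 7 members are shown to let the 2 kinds of response described below be set side by side. They are the 200 bases before the annotated start, from RefSeq on GRCh38.p14, 5′ to 3′ on the gene's strand. H2BC1 (chr6:25726577-25726776, plus strand), H2BC3 (chr6:26043714-26043913, minus), H1-1 (chr6:26017788-26017987, minus) and H3C3 (chr6:26045184-26045383, plus) belong to members that lay more than 10-fold above control with 5-aza-CdR. H3C2 (chr6:26032100-26032299, minus), H2BC11 (chr6:27132796-27132995, minus) and H2AC6 (chr6:26123972-26124171, plus) belong to highly expressed members that lay below control. Capitals mark 4 motifs searched on both strands, none of them contained in another: TATAAA for the TATA box, then CCAAT for the CCAAT box, then ATTTGCAT for the octamer bound by POU2F1, and AAACACA for an element of H1 promoters.
H2BC1: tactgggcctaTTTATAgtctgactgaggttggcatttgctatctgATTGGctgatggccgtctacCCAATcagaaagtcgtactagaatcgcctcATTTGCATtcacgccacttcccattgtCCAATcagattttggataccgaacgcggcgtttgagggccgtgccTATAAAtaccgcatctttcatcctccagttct
H2BC3: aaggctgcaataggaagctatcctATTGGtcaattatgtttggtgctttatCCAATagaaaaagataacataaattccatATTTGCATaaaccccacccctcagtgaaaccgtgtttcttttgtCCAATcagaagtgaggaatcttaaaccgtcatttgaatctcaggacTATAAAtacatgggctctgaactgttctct
H1-1: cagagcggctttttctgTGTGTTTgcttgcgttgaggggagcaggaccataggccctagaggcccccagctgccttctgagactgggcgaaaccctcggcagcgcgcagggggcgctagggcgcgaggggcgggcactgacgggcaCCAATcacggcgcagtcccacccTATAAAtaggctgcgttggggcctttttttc
H3C3: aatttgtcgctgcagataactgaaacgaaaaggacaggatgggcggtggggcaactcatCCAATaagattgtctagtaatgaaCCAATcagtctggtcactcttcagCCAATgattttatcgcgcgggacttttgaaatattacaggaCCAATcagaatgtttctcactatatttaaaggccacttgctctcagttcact
H3C2: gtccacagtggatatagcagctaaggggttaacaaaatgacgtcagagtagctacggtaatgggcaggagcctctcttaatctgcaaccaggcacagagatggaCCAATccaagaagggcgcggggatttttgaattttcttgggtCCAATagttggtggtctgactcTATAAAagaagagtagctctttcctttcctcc
H2BC11: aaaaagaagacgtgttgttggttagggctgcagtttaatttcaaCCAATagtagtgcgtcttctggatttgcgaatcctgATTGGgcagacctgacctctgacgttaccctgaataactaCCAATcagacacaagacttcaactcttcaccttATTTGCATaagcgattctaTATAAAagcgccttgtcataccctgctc
H2AC6: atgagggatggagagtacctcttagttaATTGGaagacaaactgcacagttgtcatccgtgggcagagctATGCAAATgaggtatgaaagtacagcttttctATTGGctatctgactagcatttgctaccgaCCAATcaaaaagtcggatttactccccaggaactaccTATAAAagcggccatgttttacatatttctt

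Of the 63 members 58 had a start in the promoter table. In this window CCAAT stood in 49 of 58 members (84.5%) against 28.0% of all 35116 promoters, and TATAAA in 34 (58.6%) against 8.59%. The octamer stood in 12 of 16 H2B, 6 of 14 H2A, 1 of 10 H3, 0 of 6 H1 and 0 of 12 H4 genes, and in 1.31% of all promoters. AAACACA stood in all 6 H1 genes and in no other member, against 3.76% of all promoters. By class CCAAT stood in every H1, H2A, H2B and H3 gene with a window and in 3 of 12 H4 genes. The counts that follow therefore also reflect class. CCAAT stood in all 13 of the members at least 10-fold above control with 5-aza-CdR that had a window and in 36 of the other 45, TATAAA in 8 and 26, the octamer in 5 and 14, and AAACACA in 2 and 4. These 13 members held 2 to 14 CpG (median 7), and the other 45 held 3 to 18 (median 8). H2BC3 had 2 CpG and H1-1 had 14, so the members with the largest ratios stood at both ends of that range. A match is a run of letters and not a shown site.

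By the authors' deposited table, H2AC6 and H3C4 fell with 5-aza-CdR (2 of 61 members tested) and 0 members were called higher, against 0.275% of 11256 tested entries called lower and 1.08% called higher over the whole table. Both are nucleosome core genes of the chromosome 6 cluster. H2AC6, an H2A gene (chromosome 6, 26124373 to 26124918, hg19), was at 401 FPKM in 5-aza-CdR cells, 1784 FPKM in recovery and 1301 FPKM in control. It was 3.24-fold lower with the drug (q = 0.0147) and 1.37 times control in recovery (q = 0.943), and its fragments numbered 990, 2169 and 2424. The entry named H3C4 (26197012 to 26199521) was at 739 FPKM in 5-aza-CdR cells, 2470 FPKM in recovery and 2626 FPKM in control, 3.55-fold lower with the drug (q = 0.0392). That entry spans 2510 bases, and in the name table the H3C4 locus holds H2AC7, so the call cannot be assigned to either gene. Just outside the threshold stood H4C1, at 99.7 FPKM in 5-aza-CdR cells, 275 FPKM in recovery and 482 FPKM in control (q = 0.0520 with the drug), and the H2A gene H2AC13 at 254, 869 and 665 FPKM (q = 0.0863). In recovery 0 members were called in either direction, against 0.895% of 11174 tested entries called higher and 0.447% called lower, and the lowest q of a member was 0.117.

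Summed over all members, the level was 35491 FPKM in 5-aza-CdR cells, 72468 FPKM in recovery and 56611 FPKM in control. The sum was thus 0.627 times control with the drug and 1.28 times control in recovery. The other 20157 entries summed to 0.928 times control with the drug and 1.35 times in recovery. Without their highest entry these ratios were 0.955 and 1.47. The recovery sum of the members was therefore not raised beyond that of the other entries. In such bulk samples fewer cells in S phase and less histone RNA per cell cannot be told apart. Every class had a lower sum with the drug and a higher one in recovery. The ratio of sums with the drug was 0.526 for H3, 0.581 for H2A, 0.615 for H1, 0.652 for H2B and 0.746 for H4. In recovery it was 1.22 for H2A, 1.23 for H4, 1.24 for H1, 1.35 for H2B and 1.35 for H3. The H3 sums hold the H3C4 entry, which cannot be assigned to H3C4 or the H2A gene H2AC7. That entry was 739 of 4918 FPKM with the drug, 2470 of 12652 FPKM in recovery and 2626 of 9344 FPKM in control. The place of H3 among the classes may thus rest on it. Leaving out the highest member of each class gave ratios of 0.531 to 0.750 with the drug and 1.14 to 1.44 in recovery. After quantile scaling the class ratios ran from 0.616 for H3 to 0.979 for H4 with the drug, so the H4 sum lay close to control. In recovery they then ran from 1.08 for H1 to 1.25 for H2B. By cluster, the chromosome 6 sum was 0.639 times control with the drug and 1.32 times in recovery. The 7 genes of the chromosome 1 group summed to 0.502 and 0.793 times control. H2AC20 and H2BC21 held most of that group's control sum, at 3817 and 985 of 5100 FPKM. In recovery 4 of the 7 lay above control and 3 below it, with a median ratio of 1.25. The pair H2AC25 and H2BC26 summed to 0.558 times control with the drug and 1.29 times in recovery. H4C16, the H4 gene on chromosome 12, was at 300 FPKM with the drug, 606 FPKM in recovery and 298 FPKM in control.

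**Figure D1:**
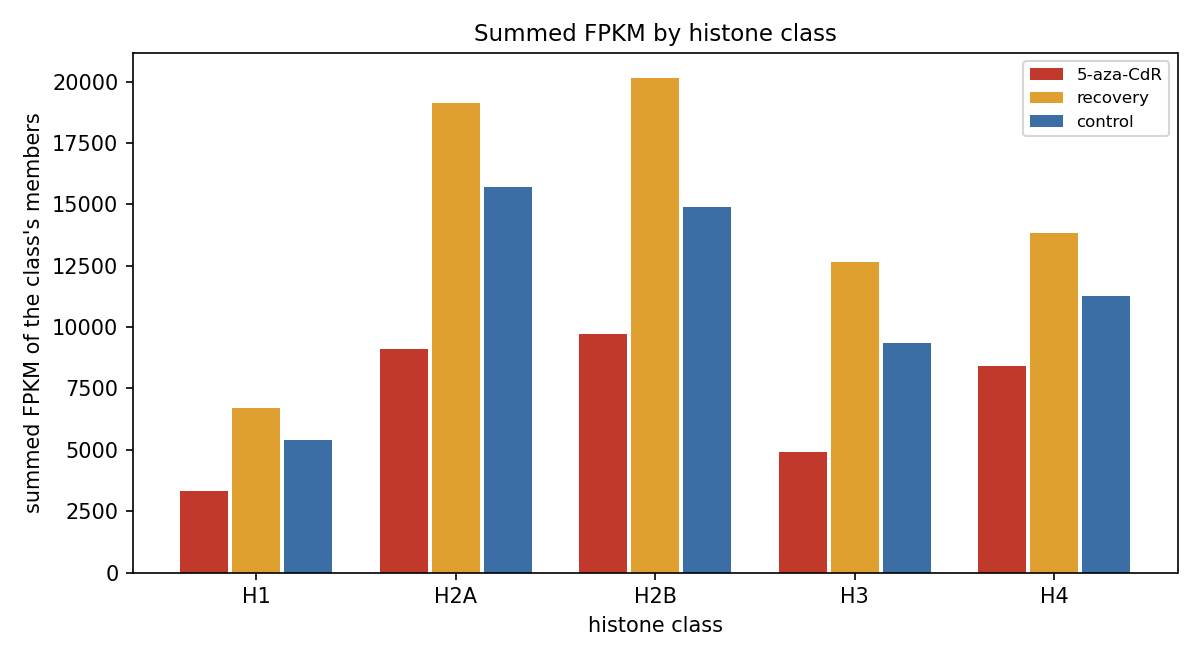
Bars give the summed FPKM of the members of each histone class (vertical axis) in 5-aza-CdR, recovery and control, from 1 value per gene and group, so no error bars can be drawn. In each class the 5-aza-CdR bar is the lowest and the recovery bar the highest, for H2B at 9718, 20159 and 14910 FPKM.

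The sums were carried by the genes that were high in control. At 100 FPKM or more in control stood 37 members, which held 99.6% of the control sum. With the drug 34 of these 37 lay below control, against 64.1% of the 627 entries at that level that were above 0 in both groups, and their median ratio was 0.601. In recovery 32 of the 37 lay above control, against 39.2% of entries at that level, with a median ratio of 1.28. All 37 were higher in recovery than with the drug, at a median of 2.25 times. The other 592 entries of 100 FPKM or more in control, the members left out, had a median ratio of 0.914 with the drug. Of these, 312 were higher and 278 lower in recovery than with the drug, with a median of 1.02 times. These entries were not matched to the members for span, so the part of gene length in the difference was not tested.

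Among linker histones H1-4, H1-2 and H1-3 had the highest control levels. H1-4 was at 1248 FPKM with the drug, 3554 FPKM in recovery and 2633 FPKM in control, and H1-2 at 1545, 2669 and 2562 FPKM. The H1-2 ratio in recovery was 1.04, but 0.968 after quantile scaling. H1-3 was at 162, 192 and 184 FPKM, so its values were the closest to each other. The H1-4 ratio was 0.474 with the drug (counting interval 0.458 to 0.491) and that of H1-3 was 0.882 (0.787 to 0.988).

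Among core histones the highest genes of each class were likewise below control with the drug. In H2A, H2AC20 was at 2035 FPKM with the drug, 2892 FPKM in recovery and 3817 FPKM in control, H2AC11 at 1582, 4132 and 3184 FPKM, and H2AC12 at 1224, 1947 and 1656 FPKM. H2AC20 was the 1 H2A member below control in recovery too. In H2B, H2BC11 was at 2424 FPKM with the drug, 5678 FPKM in recovery and 4446 FPKM in control, H2BC5 at 1388, 3921 and 3138 FPKM, and H2BC4 at 1424, 3088 and 2355 FPKM. The H2BC5 entry spans 13228 bases and H2BC5 has no fragment estimate. In H3, H3C2 was at 1700 FPKM with the drug, 4443 FPKM in recovery and 3288 FPKM in control, and H3C10 at 1068, 3660 and 2714 FPKM. In H4, whose genes nearly all encode the same protein, H4C3 was at 3572 FPKM with the drug, 4259 FPKM in recovery and 4615 FPKM in control, the highest control level of any member. Its ratio with the drug was 0.774, but 1.21 after quantile scaling, so its direction depends on the scaling. H4C4 was at 1373, 2613 and 2104 FPKM and H4C2 at 1114, 1857 and 1571 FPKM. Above control with the drug lay 3 of the 37, against 35.9% of entries at that level. They were H2BC8 (950, 1678 and 659 FPKM with the drug, in recovery and in control), H4C8 (990, 1891 and 919 FPKM) and H4C16, whose ratio of 1.01 became 0.945 after quantile scaling. These were picked out once their values were known, and only the H2BC8 ratio, 1.44 (1.33 to 1.57), had a counting interval clear of 1.

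**Figure D2:**
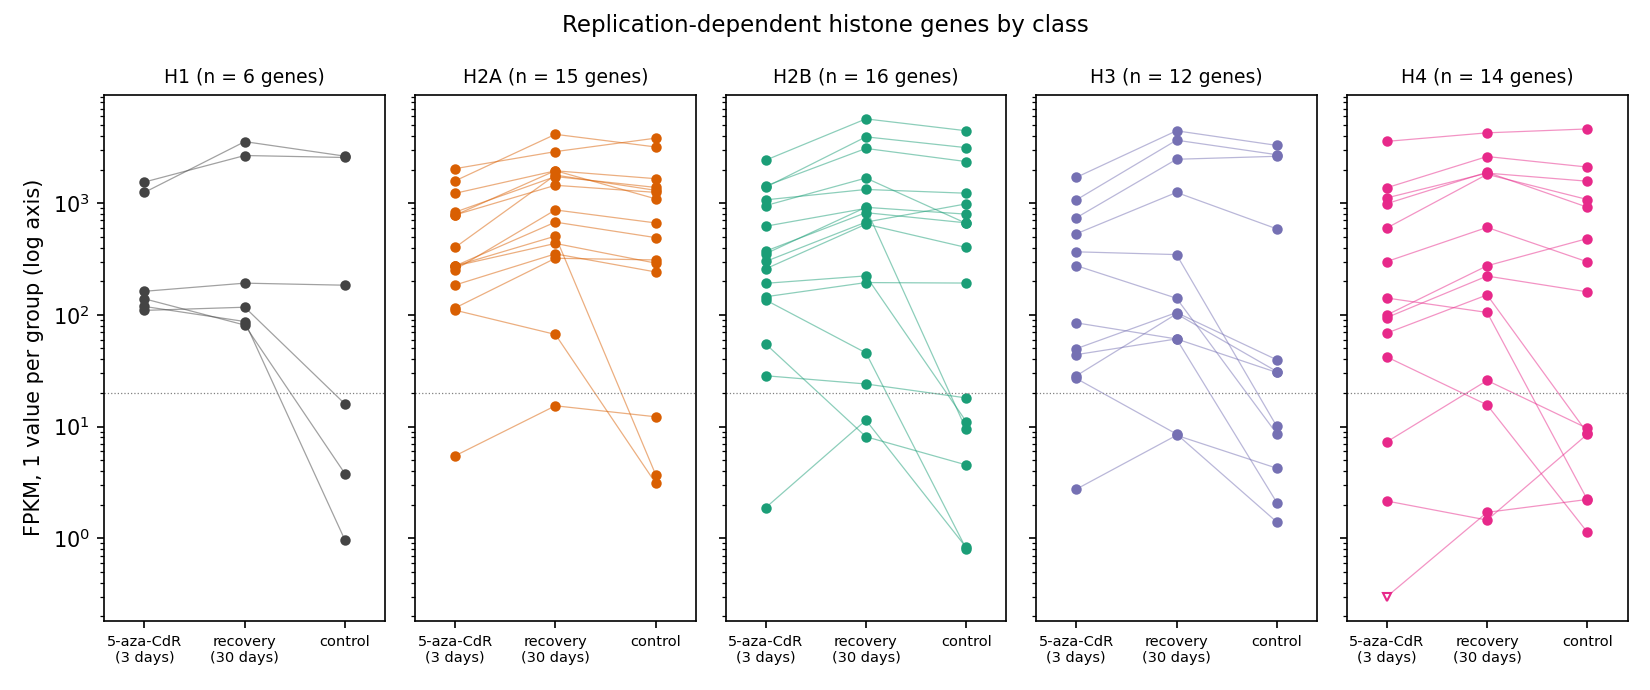
Each point is a member's FPKM (log axis) in 5-aza-CdR, recovery or control, with lines joining the values of 1 gene, in a panel per class; the dotted line marks 20 FPKM and the open triangle is H4C7, listed at 0 with the drug and drawn at the foot of the axis. Lines from the high genes dip on the left, while those from low control points, such as H1-1 at 0.957 FPKM, lead up to far higher values in the other groups.

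A second set of members was low in control, and most of it was higher in the other groups. Below 20 FPKM stood 6 members with the drug, 8 in recovery and 23 in control. With the drug 18 of the 23 that were below it in control lay above control, 14 of them at least 10-fold, and 5 (H2AC19, H3C15, H4C7, H4C12 and H4C15) lay below it. In recovery 21 lay above control, 14 at least 10-fold. No member was 10-fold lower in either group, against 0.825% of entries with the drug and 0.752% in recovery. Over all entries above 0 in both groups, 3.02% lay at least 10-fold higher with the drug (12366 entries) and 2.56% in recovery (12095 entries). Among entries in the same control range the shares were 0.564% and 0.433%, and with the members left out 0.373% and 0.238%. Among the other entries of that range that span under 900 bases, 1 of 19 did so with the drug and 0 of 18 in recovery. None of these members was called, the lowest q among the 23 being 0.231 with the drug and 0.222 in recovery, both for H1-6. The 23 members made up 0.253% of the summed control FPKM, 7.92% of the sum with the drug and 4.07% of the sum in recovery.

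The genes known from testis stood in this set. H2AC1 and H2BC1 encode the testis forms of H2A and H2B, lie head to head with 346 bases between their entries, and are usually silent in somatic cells. H2BC1 (chromosome 6, 25727137 to 25727573) was at 621 FPKM with the drug, 898 FPKM in recovery and 9.41 FPKM in control, from 1050, 748 and 12 fragments. H2AC1 (25726291 to 25726790) was at 274, 507 and 3.71 FPKM, from 586, 534 and 6 fragments. Both thus stood higher in recovery than with the drug, at 95.4 times control for H2BC1 (counting interval 54.3 to 186) and 136 times for H2AC1 (62.2 to 373). In the authors' deposited table H2BC1 had q = 0.607 and H2AC1 q = 0.917, in both comparisons. H1-6, the testis linker histone, was at 110 FPKM with the drug, 117 FPKM in recovery and 15.9 FPKM in control, 6.90 and 7.36 times control.

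Several somatic members of this set were also above control in both other groups. Most of those named here were higher with the drug than in recovery. The linker histone H1-1 was at 119 FPKM with the drug, 87.1 FPKM in recovery and 0.957 FPKM in control, from 492, 178 and 3 fragments, and H1-5 at 139, 80.9 and 3.77 FPKM, from 585, 168 and 12 fragments. The H1-1 ratio was 124 with the drug (counting interval 42.1 to 603) and the H1-5 ratio 36.9 (20.9 to 71.7). With H1-6 this makes 3 of the 6 linker histones with a control value under 20 FPKM and higher values in both other groups. In H2B, H2BC3 had the largest ratio of any member with the drug, 169, but 1 control fragment leaves that ratio between 30.1 and 6710. It was at 136 FPKM with the drug, 45.6 FPKM in recovery and 0.805 FPKM in control, from 224, 37 and 1 fragments. H2BC6 was at 192, 223 and 11.1 FPKM and H2BC14 at 54.9, 8.11 and 4.53 FPKM. H2BC14 was 12.1 times control with the drug and 1.79 times in recovery (counting interval 0.514 to 6.44), so its recovery value could not be told from control at this depth. Its H2A neighbour H2AC14 was at 110, 66.8 and 3.11 FPKM.

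Among H3 genes, H3C12 was at 367 FPKM with the drug, 346 FPKM in recovery and 10.0 FPKM in control, and H3C3 at 276, 141 and 8.61 FPKM. H3C8 was at 84.8, 60.8 and 2.09 FPKM and H3C7 at 26.95, 8.56 and 1.40 FPKM. The last of these rested on 51, 8 and 2 fragments, and its ratio in recovery, 6.13, has a counting interval of 1.22 to 59.2. Among H4 genes, H4C6 was at 141 FPKM with the drug, 105 FPKM in recovery and 2.21 FPKM in control, and H4C13 at 42.0, 15.6 and 1.13 FPKM, the control values being 2 and 1 fragments. The H2B gene H2BC9 was at 1.88, 11.4 and 0.826 FPKM, from 3, 9 and 1 fragments, and so lay above 10-fold in recovery alone. The H4C9 entry, at 68.6, 151 and 8.74 FPKM, spans 8566 bases. Of the 16 members at least 10-fold above control in either group, the testis pair, H2BC6, H2BC9 and H4C9 had the higher value in recovery, and the other 11 had it with the drug.

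**Figure D3:**
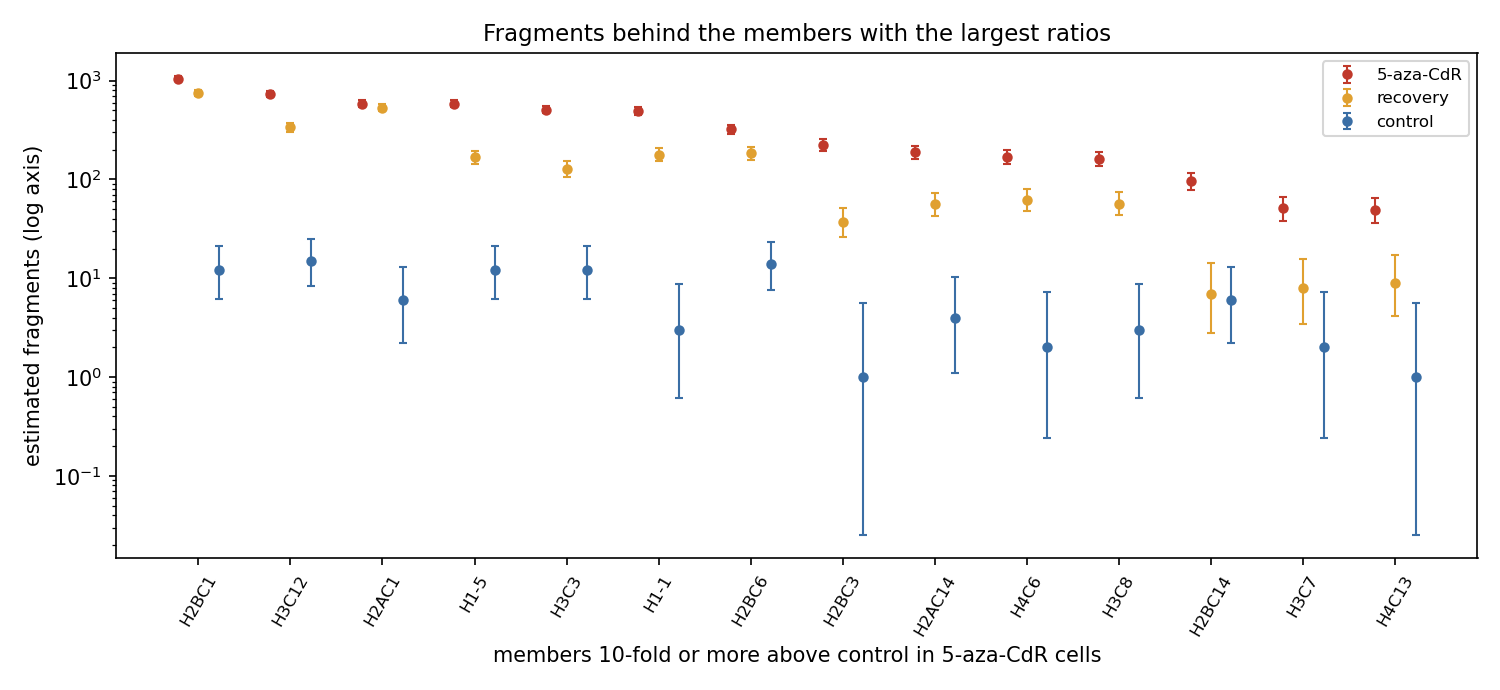
Estimated fragments (log axis) of the 14 members at least 10-fold above control with 5-aza-CdR, in 5-aza-CdR, recovery and control, with exact Poisson 95% intervals as error bars. Control values run from 1 to 15 fragments and those with the drug from 49 to 1050, and the recovery value of H2BC14, 7 fragments, sits beside its control value of 6.

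**Figure D4:**
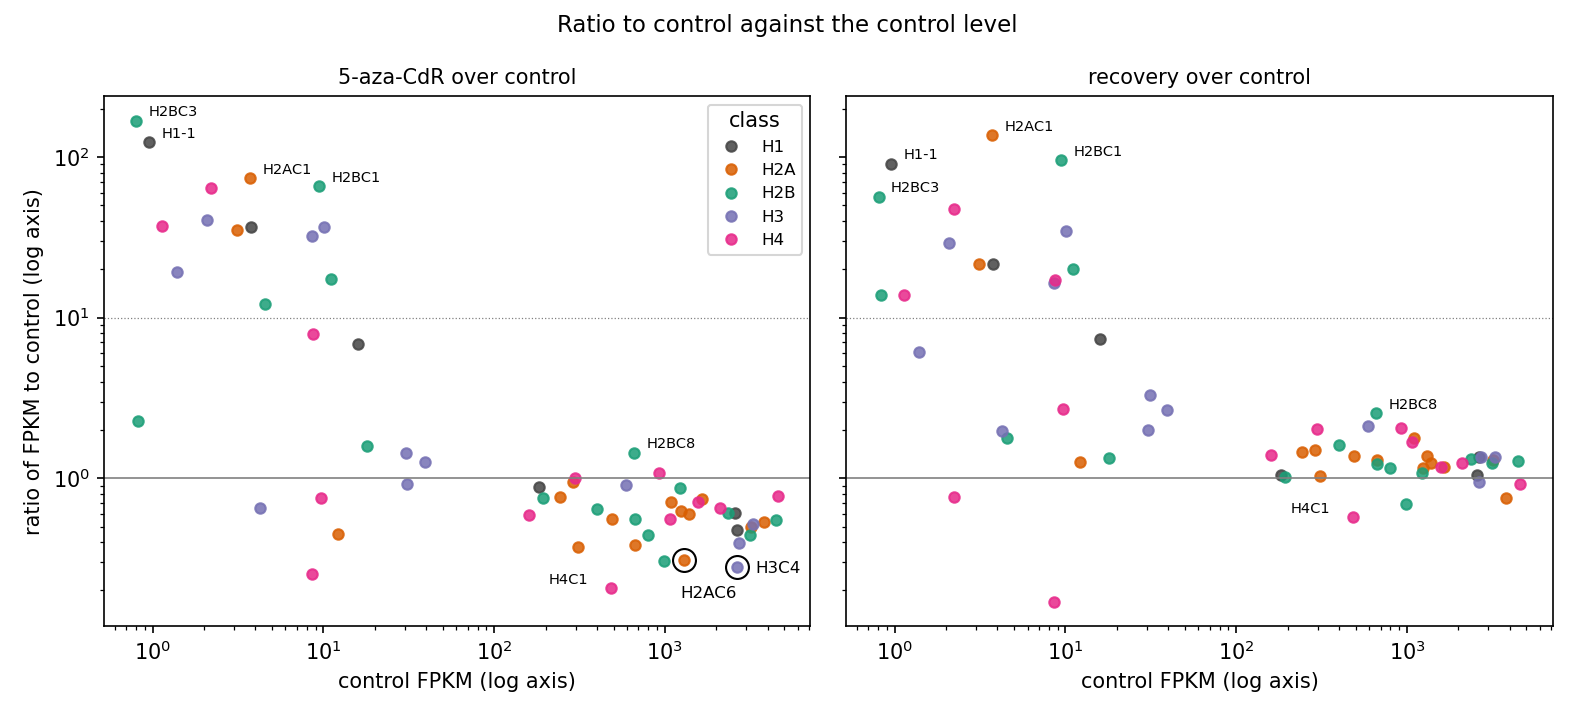
The ratio of FPKM to control (log axis) against control FPKM (log axis) for members above 0 in both groups, coloured by class, for 5-aza-CdR on the left and recovery on the right; black circles mark the authors' calls, and the control value enters both axes. Points under 20 FPKM in control reach ratios of 169 and 136, and the 37 points at 100 FPKM or more have medians of 0.601 and 1.28.

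A column of the authors' deposited table marks some entries for DNA methylation, and its heading does not give the direction. The mark was on 8 of 63 members (12.7%) and on 14.1% of all entries. All 8 lay below 20 FPKM in control: H1-5, H1-6, H2AC1, H2BC3, H2BC6, H2BC9, H3C3 and H4C7. Over the other entries the mark was likewise more frequent at low levels, on 1103 of 8776 above 0 and under 20 FPKM in control and on 15 of 592 at 100 FPKM or more. Among members it was on 8 of the 23 under 20 FPKM in control, which include all 14 at least 10-fold above control with the drug. It was on 5 of these 14 and on 3 of the other 49, but those 3 were also under 20 FPKM in control. No link of the mark with the response is read from these counts. H4C7 was the exception in direction, listed at 0 with the drug and at 1.70 FPKM in recovery and 2.22 FPKM in control, that is 0, 1 and 2 fragments. H2BC1, H1-1 and H3C12 were without the mark. Whether the mark was made from data independent of these libraries is not given in the sources used.

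High and low members were interleaved along chromosome 6. The first block, of 33 members, had a summed level of 0.663 times control with the drug, and the second, of 20, of 0.597 times. H2BC3 and H3C3, at 169 and 32.0 times control, lay next to H2AC4, at 274 FPKM with the drug and 290 FPKM in control, and to H1-2. All 7 members of the chromosome 1 group were below control with the drug, at 0.252 to 0.915 times. The counting intervals of H3C13 (0.598 to 1.40), H3C15 (0.180 to 2.25) and H4C15 (0.0438 to 1.01) include 1, and H2BC21 has none. Among 10 head-to-head H2A and H2B pairs, with 239 to 346 bases between entries, both partners lay on the same side of control in 9 with the drug and in 10 in recovery. Since 56 of all 63 members lay above control in recovery, and 34 of the 37 high members below it with the drug, nothing about the pairs is read from these counts. The exception was H2AC8, at 0.714 times control with the drug, beside H2BC8, at 1.44 times. Adjacent copies can share sequence, and the division of fragments among near-identical genes is not given in the sources used.

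**Figure D5:**
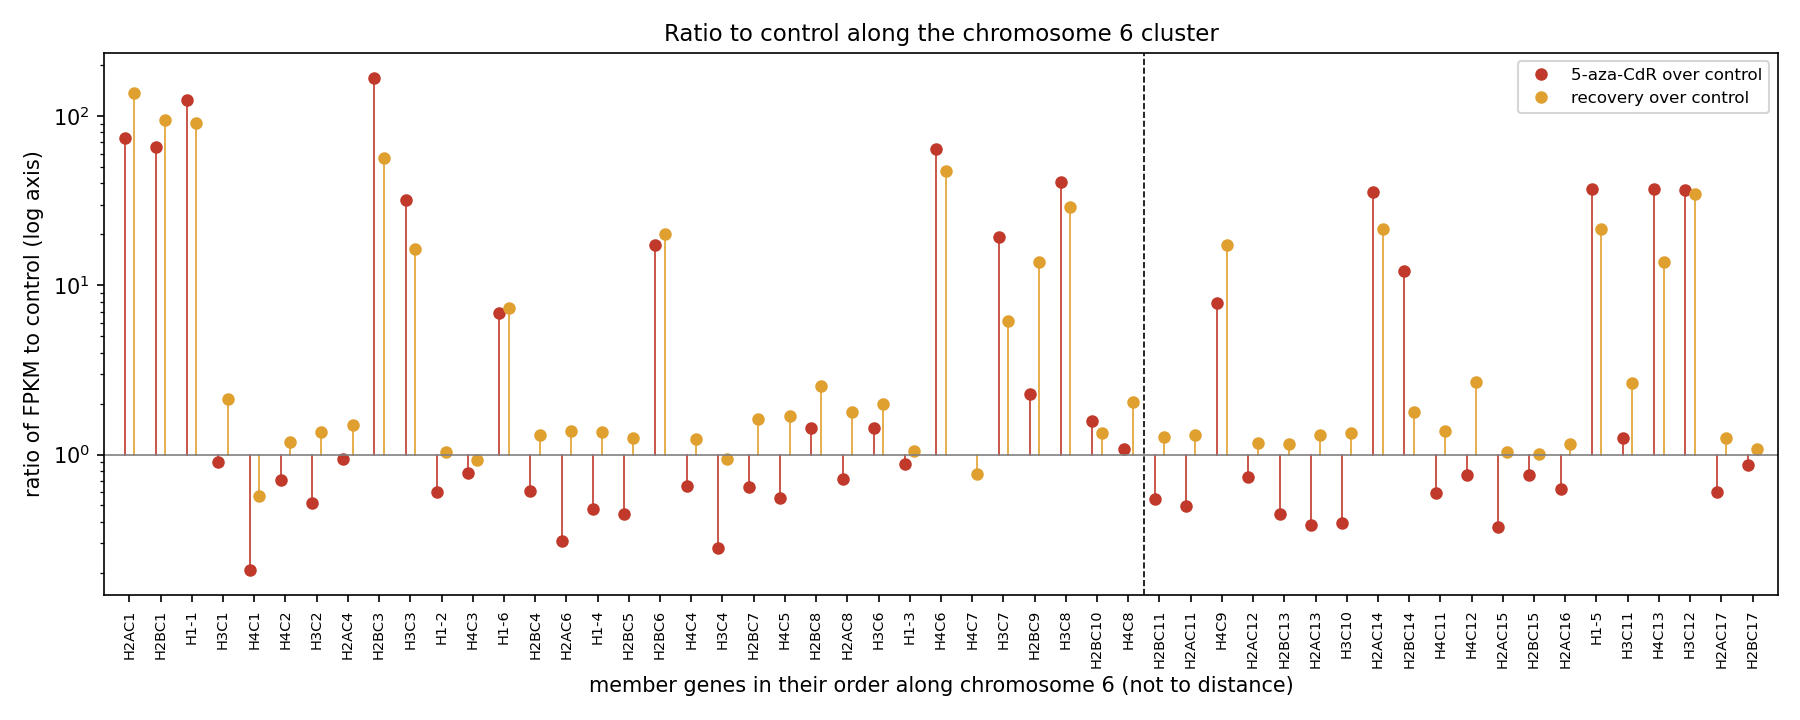
The ratio of FPKM to control (log axis) for the 53 members in their order along chromosome 6, with 5-aza-CdR left of recovery at each gene and the dashed line between the blocks of 33 and 20 members; H4C7 has no 5-aza-CdR point because it was listed at 0. H2BC3 (169 with the drug) and H3C3 beside it (32.0) stand between H2AC4 (0.942) and H1-2 (0.603).

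Histone genes outside the rule, among them variant, replacement and testis forms, were set beside the members. Of 15 measured, 0 were called in either comparison, and 4 were listed at 0 in every group. Over all tested entries 1.08% were called higher and 0.275% lower with the drug, and 0.895% and 0.447% in recovery. Nothing is thus read from the count of 0 calls. The median log2 change of these histone genes (of FPKM plus 1, over the 11 genes whose mean reached 0.5 FPKM) was -0.19 with the drug and -0.01 in recovery. For the 63 members the medians were -0.41 and 0.47, and for 12712 entries 0.01 and 0. The members' means were 0.68 and 1.37, so with the drug mean and median differ in sign. H2AZ1, the main H2A.Z gene, was at 305 FPKM with the drug, 249 FPKM in recovery and 343 FPKM in control. H2AX, whose product is phosphorylated at DNA breaks, was at 93.2, 113 and 133 FPKM. The genes of the replacement histone H3.3 were at 157, 192 and 192 FPKM for H3-3B and 4.33, 6.92 and 5.06 FPKM for H3-3A. H3-4, a testis H3 gene singled out for its values, stood at 48.5, 4.05 and 0.661 FPKM, from 97, 4 and 1 fragments.

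Genes that make and handle histone mRNA and protein were measured beside the members. NPAT, the coactivator of histone transcription, was at 15.0 FPKM with the drug, 10.4 FPKM in recovery and 16.3 FPKM in control, and SLBP, the stem-loop binding protein, at 98.0, 83.8 and 72.8 FPKM. The calls were 0 of 14 measured genes of histone transcription, 0 of 17 of 3′ end processing, 0 of 15 of mRNA turnover and 0 of 17 histone chaperones, in both comparisons. With 1.08% of tested entries called higher and 0.275% lower with the drug, and 0.895% and 0.447% in recovery, nothing is read from these counts of 0. Their median log2 changes with the drug lay between -0.15 and 0.12 and in recovery between -0.18 and 0.13. Of 22 measured S phase genes, such as the helicase genes MCM2 to MCM6, 0 were called, with medians of 0.01 and -0.06. Their summed level was 1490 FPKM with the drug, 1494 FPKM in recovery and 1514 FPKM in control, beside a histone sum of 0.627 and 1.28 times control. The part of cell cycle distribution in the histone values was not tested.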

How the data were processed

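RNA from 5 HEK 293T libraries was depleted of ribosomal RNA and made into strand-marked libraries, per the labels' protocols. The authors deposited FPKM, 1 per gene and group, and q-values (adjusted p-values) against control, per the file headers. Cufflinks and Cuffdiff are named in the submitters' processing notes, which list the builds hg19 and mm9. The sources used here name no aligner, annotation or settings. Of 20221 entries 1 with shifted cells was left out. Identifiers were matched to symbols with RefSeq's table (GRCh38.p14), and 19665 matched. The number of value columns without a group was 0.

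The planned model on single libraries needs values per library, so the authors' calls at q under 0.05 were used. Entries with q under 1 count as tested. Log2 changes used a pseudocount of 1 and a minimum mean of 0.5 FPKM. A step was searched between 100 and 400 FPKM times bases that made values under 12.5 fragments whole, over members spanning under 900 bases and intronless receptor genes under 1500. The search was tested on simulated data. Named were all members with a call, the 3 highest in control per class, and members at least 10-fold from control. The members and lists were chosen with earlier results of these data known. Bands at 20 and 100 FPKM were set after the values were seen. Python 3.11.15, pandas 2.3.3, numpy 2.4.6, scipy 1.17.1 and matplotlib 3.10.9 were used. Alternatives were the q threshold, pseudocount, low-value filter, scaling and left-out members.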

Additional observations from a re-analysis of the deposited data

How the results depend on the processing

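No paired analysis was possible because only group values were deposited, and leaving out single libraries could not be run for the same reason. Members called lower with 5-aza-CdR numbered 2 at q under 0.05, 0 at q under 0.01 and 4 at q under 0.10. The counts of members called higher with the drug, and higher or lower in recovery, were 0 at each of these thresholds. The members' median log2 change with the drug, -0.41, became -0.37 with a pseudocount of 10, -0.40 with a mean of 5 FPKM or more, -0.36 after median-ratio scaling, -0.21 after quantile scaling and -0.39 without entries of 900 bases or more. In recovery the median of 0.47 became 0.45, 0.50, 0.50, 0.42 and 0.54 under the same settings. The ratio of summed FPKM with the drug, 0.627, became 0.646 after median-ratio scaling, 0.780 after quantile scaling and 0.614 without the highest member. In recovery 1.28 became 1.31, 1.16 and 1.31. The causes of these moves were not tested. Quantile scaling put H4C3 (1.21), H2BC17 (1.05) and H4C16 (0.945) on the other side of control with the drug, brought H2AC12 to 1, and moved H1-2 (0.968), H2AC15 (0.954) and H2BC15 (0.973) across in recovery, while median-ratio scaling moved 0 members across; in the high band it left 32 of 37 members below control with the drug and 29 above it in recovery. Low control values of 1 to 15 fragments limit the ratios of the 14 members at least 10-fold above control with the drug. H4C9 has no fragment estimate.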

Other observations

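Among members below 20 FPKM in control, some stayed at 28.5 FPKM or less in every group. On chromosome 1, H2AC19 was at 5.47 FPKM with 5-aza-CdR, 15.3 FPKM in recovery and 12.2 FPKM in control, H3C15 at 2.75, 8.34 and 4.23 FPKM, and H4C15 at 2.15, 1.45 and 8.54 FPKM. These are genes with a near-identical copy (H2AC18, H3C14 and H4C14) that had no entry of its own, so the values may hold only part of the fragments of either copy. H4C15 rested on 3, 1 and 9 fragments. On chromosome 6, H4C12 was at 7.29, 25.8 and 9.63 FPKM and H2BC10 at 28.5, 24.0 and 18.0 FPKM. The H4C12 ratio in recovery was 2.68 (counting interval 1.05 to 7.37). These genes were named after their values were seen.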
